A study of Mus musculus with 18 samples.

Results

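The TGF-beta ligands *Tgfb1*, *Tgfb2* and *Tgfb3*, their receptors *Tgfbr1*, *Tgfbr2* and *Tgfbr3*, and the latent TGF-beta binding proteins *Ltbp1*, *Ltbp2*, *Ltbp3* and *Ltbp4* were described in 18 RNA-seq libraries of mouse brain at postnatal day 0 (P0). These 10 genes were chosen by name from 23138 named genes in the hippocampal, 23398 in the neurosphere and 54429 in the cortical and *Rnf2* tables. They were picked because *Ltbp4* was among the clearest rises in mutant hippocampus, so their hippocampal values are given as a description with no test. All 10 had an entry of their own in each of the 4 tables, and no entry joined a member with another gene.

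The mutant mice carried Kdm2bEmx1-delta-CxxC (cKO), in which *Emx1-Cre*, active in dorsal telencephalic progenitors and their progeny, removes the exon for the CxxC zinc finger of KDM2B, and the controls carried Kdm2bfl/+ or Kdm2bfl/fl. The labels do not tell heterozygous from homozygous floxed controls, and cells outside the *Emx1* lineage keep their intact alleles. There were 3 control and 3 cKO libraries of hippocampus, 2 and 2 of cortex, and 2 and 2 of neurospheres. Neurospheres were progenitors from P0 hippocampi kept in suspension with FGF2 and EGF for 3 passages. A separate set held 2 hippocampal libraries of Rnf2fl/+ or Rnf2fl/fl controls and 2 of Rnf2Emx1-cKO mice. In the latter the same Cre deletes *Rnf2*, the gene for the PRC1 ubiquitin ligase RING1B. The labels do not say whether the libraries of a group came from separate mice. Values are FPKM, a fragment count scaled to transcript length and to the mapped fragments of a library.

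TGF-beta ligands are secreted bound to their own propeptide, and this latent complex is usually joined covalently to an LTBP, which stores it on fibrillin and fibronectin in the extracellular matrix. Integrins, thrombospondin and proteases release the ligand, which then binds TGFBR2 and recruits the kinase TGFBR1, while the co-receptor TGFBR3 (betaglycan) presents mainly TGF-beta 2. LTBP1 and LTBP3 bind all ligand forms, LTBP4 binds chiefly TGF-beta 1, and LTBP2 does not bind latent TGF-beta. KDM2B recognizes unmethylated CG-rich DNA through the CxxC finger and brings a variant PRC1 complex to it.

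Start-site sequences are shown for *Ltbp4* and *Ltbp3*, the members with the largest hippocampal differences, and for *Tgfb2*, which went the other way in neurospheres, because the deleted domain reads CG dinucleotides. They come from RefSeq windows of 250 bases before a transcript start (GRCm38.p6), 5′ to 3′ on the gene's strand, with each CG in capitals; CG reads the same on both strands. For the upstream *Ltbp4* start only the 170 bases before the annotated exon are printed, chr7:27337693-27337862 on the minus strand. The internal *Ltbp4* start is represented by chr7:27333664-27333913, also minus. *Ltbp3* is shown at chr19:5740650-5740899 on the plus strand and *Tgfb2* at chr1:186705990-186706239 on the minus strand.
Ltbp4 upstream start: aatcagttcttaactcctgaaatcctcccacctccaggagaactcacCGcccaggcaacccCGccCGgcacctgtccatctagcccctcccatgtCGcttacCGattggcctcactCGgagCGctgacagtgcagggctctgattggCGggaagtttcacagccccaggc
Ltbp4 internal start: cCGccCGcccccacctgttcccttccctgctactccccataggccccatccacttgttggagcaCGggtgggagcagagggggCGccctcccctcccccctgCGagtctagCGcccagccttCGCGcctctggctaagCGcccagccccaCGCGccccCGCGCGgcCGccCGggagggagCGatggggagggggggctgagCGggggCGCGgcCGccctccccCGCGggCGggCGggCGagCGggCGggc
Ltbp3: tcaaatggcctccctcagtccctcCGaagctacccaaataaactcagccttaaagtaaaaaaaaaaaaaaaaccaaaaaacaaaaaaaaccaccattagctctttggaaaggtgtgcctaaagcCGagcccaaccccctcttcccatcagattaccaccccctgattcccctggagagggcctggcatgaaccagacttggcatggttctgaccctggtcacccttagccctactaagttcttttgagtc
Tgfb2: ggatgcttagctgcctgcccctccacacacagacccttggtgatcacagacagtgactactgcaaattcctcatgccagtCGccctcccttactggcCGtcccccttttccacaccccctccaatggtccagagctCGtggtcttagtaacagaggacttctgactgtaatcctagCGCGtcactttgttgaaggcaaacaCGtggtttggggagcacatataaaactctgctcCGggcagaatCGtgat
The internal *Ltbp4* window held 28 CG, a number reached by 7.61% of the 32851 mouse windows of that length, whose median was 6. The whole upstream *Ltbp4* window held 15 CG, reached by 27.3% of windows, and 8 of them lie in the stretch printed. The *Ltbp3* window held 2 CG, reached by 81.2%, and the *Tgfb2* window 8, reached by 43.0%. Of the 10 members 8 had a window. Among the windows of the other members the count ran from 3 to 29, both at starts of *Tgfbr1*. Members with large differences thus had windows at both ends of the range, which describes letters and not binding.

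The genes lie on 8 chromosomes, and in GRCm38 *Ltbp4* spans chr7:27305136-27337692 on the minus strand, *Ltbp3* chr19:5740904-5758532 on the plus strand, *Ltbp1* chr17:75005568-75392512 on the plus strand and *Tgfb2* chr1:186622792-186705989 on the minus strand. Exons of *Ltbp4*, *Ltbp1*, *Tgfb1*, *Tgfbr1* and *Tgfbr2* overlap no other annotated gene. Exons of the other 5, *Ltbp3* among them, overlap other annotated genes. Whether reads were counted by strand is not given in the sources used here, so for those 5 reads of an overlapping gene cannot be told apart.

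Total FPKM per library ran from 261406 to 522964 except in neurosphere control 1, where it was 855276 and 29.3% of it fell on entries with no gene name. In that library *Mir6236* held 22.6% of the FPKM on named genes. Cortical and *Rnf2* values could be turned back into whole reads, 18480515 to 21905224 per cortical and 14654894 to 16334420 per *Rnf2* library, whereas the depth of hippocampal and neurosphere libraries is unknown. Over its whole length the targeted *Kdm2b* differed by -0.10 in hippocampus, 0.06 in neurospheres and -0.13 in cortex on the log2 scale, values that cannot show the loss of 1 exon. *Rnf2* went from 31.5 ± 1.02 to 28.1 ± 0.494 FPKM (SD, n = 2 and 2) in its own cKO, a log2 difference of -0.16 (adjusted p = 0.762), so the deletion was not visible in the gene's total. *Xist* was high in 1 of 3 hippocampal cKO and no hippocampal control libraries, in 3 of 4 neurosphere, 3 of 4 cortical and 4 of 4 *Rnf2* libraries, so libraries of both sexes occurred in the 3 *Kdm2b* tables, unevenly between groups. *Prox1*, a hippocampal marker whose cortical values are not given here, was present in *Kdm2b* hippocampi (29.8 to 41.3 FPKM). *Emx1*, a gene of the dorsal telencephalon, was present both there (37.3 to 45.0) and in cortex (25.4 to 29.3). The values given for these genes thus do not tell the tissues apart. No values of these genes are given here for *Rnf2* hippocampi. In neurospheres progenitor markers were abundant, oligodendrocyte lineage markers summed to 2308 to 2510 FPKM, and *Emx1* was at 0.175 and 0 FPKM in controls and at 1.16 and 1.84 in cKO.

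In *Kdm2b* cKO hippocampi the latent binders *Ltbp4* and *Ltbp3* were at 2.195 and 1.94 times their control level, *Ltbp1* was at 1.66 times, and the ligand *Tgfb2* at 0.980 times. *Ltbp4* was at 11.5, 10.9 and 10.8 FPKM in the controls and at 25.2, 24.3 and 23.1 FPKM in the cKO, that is 11.03 ± 0.396 against 24.2 ± 1.08 (SD, n = 3 each). Every cKO library lay far above every control, and the log2 difference, on the log2(FPKM + 1) scale used for all differences here, was 1.07. *Ltbp3* was at 8.08, 6.80 and 7.19 FPKM in the controls and at 15.3, 15.3 and 12.3 FPKM in the cKO, a log2 difference of 0.87. The groups were again apart, with cKO 3 the lowest of its group. *Ltbp1* stood at 3.37, 2.47 and 3.22 FPKM against 5.35, 5.92 and 3.79 FPKM, a log2 difference of 0.57, and cKO 3 came close to the highest control. *Ltbp2*, the binder that does not carry latent TGF-beta, ranged from 1.79 to 2.66 FPKM in controls and from 1.86 to 2.80 FPKM in cKO, so that its groups overlapped.

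The hippocampal ligands were dominated by *Tgfb2*, at 24.2, 28.7 and 22.2 FPKM in controls and 23.6, 24.8 and 25.2 FPKM in cKO, with overlapping groups and a log2 difference of -0.02. *Tgfb3* was at 2.53, 2.25 and 2.40 FPKM against 3.11, 3.82 and 2.81 FPKM, a log2 difference of 0.32 without overlap. *Tgfb1* ran from 2.29 to 3.63 FPKM in controls and from 3.17 to 3.89 FPKM in cKO, with overlap. Of the receptors, *Tgfbr1* was at 14.96, 12.8 and 14.1 FPKM against 18.6, 18.9 and 15.9 FPKM, a log2 difference of 0.33 without overlap. *Tgfbr2* and *Tgfbr3* overlapped between the groups, with log2 differences of 0.09 and 0.13.

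A gene was called when the log2 difference exceeded 0.4 in size with an unadjusted p under 0.05 from limma, the study's thresholds. All 10 members passed the expression filter of a mean of 0.5 FPKM in hippocampus, where 3 met the call, all higher, beside 6.14% of the 13446 genes tested in either direction and 3.89% higher. The groups did not overlap, with cKO above, for 5 members beside 14.9% of genes, and the median log2 difference was 0.27 over the members and 0.01 over all genes. Nothing is read from these counts because this contrast chose the members. Progenitor markers were higher in the same cKO libraries (4 of 6 called, summed 236 to 275 FPKM in controls and 323 to 366 in cKO), as were those of microglia (5 of 9 called, 67.7 to 74.4 against 85.0 to 109), and 2 of the 3 choroid plexus markers that passed the filter were called higher (7 listed, 5.63 to 17.0 against 7.25 to 59.8). Of 4 thalamic markers that passed the filter 2 were called higher, Lhx9 at 0.57 and Tcf7l2 at 0.40 on the log2 scale (5 listed, 26.1 to 29.9 against 36.9 to 40.1). Their part in the member values was not tested. None of 10 meningeal markers was called (152 to 182 against 145 to 185), sums of which 91.7 to 112 FPKM lay in an entry that joins Crabp2 with 3 other genes. In bulk tissue a change in the number of cells that express a gene and a change in RNA per cell cannot be told apart.

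**Figure D1:**
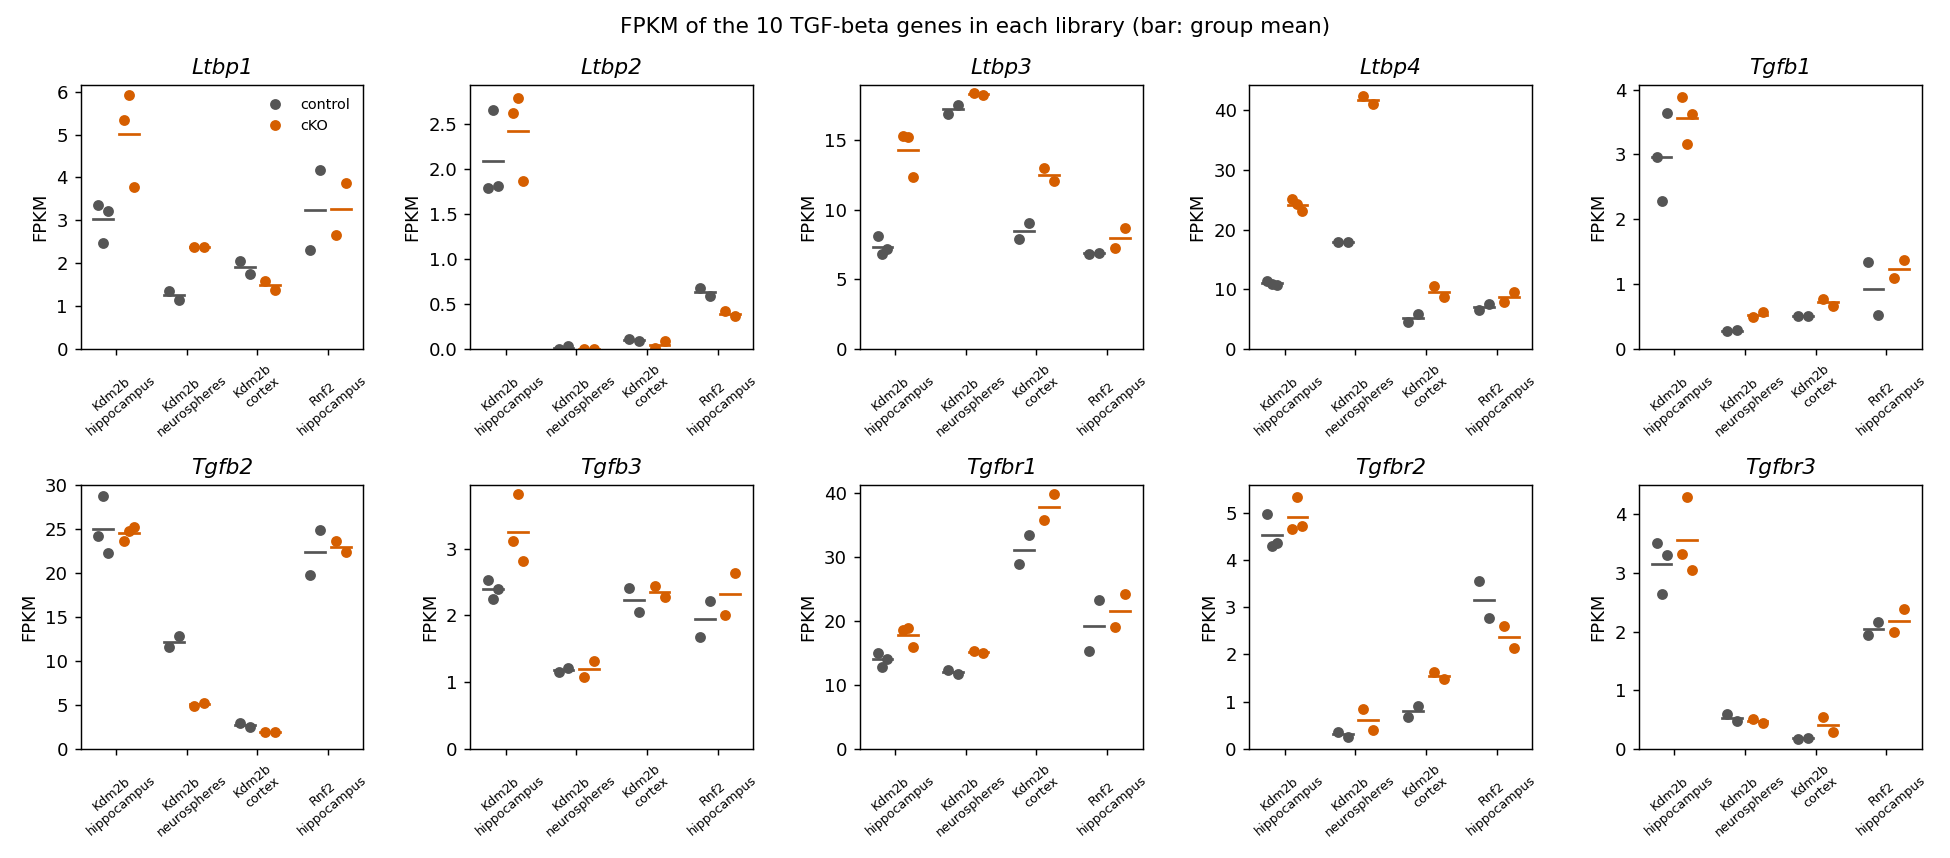
FPKM (y axis, linear from 0, scaled per gene) of each of the 10 genes in each library of the 4 tables (x axis), with control libraries in grey, cKO in orange and a bar at each group mean. *Ltbp4* is apart in all 4 tables, with *Kdm2b* hippocampal controls at 10.8 to 11.5 and cKO at 23.1 to 25.2 FPKM. In *Rnf2* hippocampus its controls are at 6.54 and 7.58 and its cKO at 7.93 and 9.62 FPKM. Groups of 2 libraries were apart for 38.3 to 66.4% of all genes. *Tgfb2* is lower in cKO neurospheres and overlaps in both hippocampal tables.

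In control hippocampi the order of levels per length was *Tgfb2*, *Tgfbr1*, *Ltbp4*, *Ltbp3* and *Tgfbr2*, each apart from its neighbour, followed by *Tgfbr3*, *Ltbp1*, *Tgfb1*, *Tgfb3* and *Ltbp2*, each of which overlapped the gene above it apart from *Tgfbr3*. In the cKO, *Ltbp4* (24.2 FPKM) overlapped *Tgfb2* (24.5 FPKM) at the top of the order. The 4 latent binders together summed to 22.8 to 24.7 FPKM in controls and 41.1 to 48.5 FPKM in cKO, whereas the 3 ligands summed to 28.3 to 33.2 and 30.6 to 31.8 FPKM. Control libraries therefore held more ligand than binder RNA per length, and cKO libraries more binder than ligand.

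Neurospheres, which were not used to choose the genes, asked whether the same members differ in cultured progenitors without the other tissue. *Ltbp4* rose by a factor of 2.33, *Ltbp1* rose by a factor of 1.89, *Tgfb2* fell to 0.414 of its control level, and *Ltbp3* was not called. *Ltbp4* was at 17.97 and 17.94 FPKM in controls and at 42.4 and 41.2 FPKM in cKO, and the spread within a group was small beside the step between them. The log2 fold change was 1.17 with a standard error of 0.077 and a 95% interval of 0.99 to 1.36 (adjusted p = 0.0013, limma with Benjamini-Hochberg). Without control 1, the library rich in unnamed entries, it was 1.18 (adjusted p = 0.0334).

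*Tgfb2*, the leading ligand of control neurospheres, was at 11.6 and 12.8 FPKM in controls and 4.86 and 5.23 FPKM in cKO. Both cKO libraries lay below both controls, and the log2 fold change was -1.12 (SE 0.10, 95% interval -1.38 to -0.87, adjusted p = 0.00233). Without control 1 it was -1.19 (adjusted p = 0.036). *Ltbp1* was at 1.36 and 1.15 FPKM against 2.37 and 2.38 FPKM, a log2 fold change of 0.58 (SE 0.15, adjusted p = 0.0397). This call was lost without control 2, at 0.52 (adjusted p = 0.218).

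*Ltbp3* was in neurospheres at 16.9 and 17.5 FPKM in controls and 18.4 and 18.2 FPKM in cKO, a log2 fold change of 0.08 (95% interval -0.11 to 0.28, adjusted p = 0.487). The receptor kinase *Tgfbr1* was at 12.3 and 11.7 FPKM against 15.2 and 14.97 FPKM, without overlap, the log2 fold change being 0.31 (adjusted p = 0.0501), under the fold threshold. *Tgfb3* (0.01, 95% interval -0.39 to 0.41) and *Tgfbr3* (-0.06, 95% interval -0.52 to 0.41) overlapped between groups. *Ltbp2*, *Tgfb1* and *Tgfbr2* were under the filter: *Ltbp2* was listed at 0 in 3 of 4 libraries, *Tgfb1* was at 0.278 and 0.289 FPKM in controls and 0.488 and 0.574 in cKO, and *Tgfbr2* at 0.355 and 0.254 against 0.838 and 0.401.

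Of the 7 members that passed the filter 3 were called, beside 24.6% of 12227 genes in either direction, 11.4% higher and 13.2% lower, and the same 3 had an adjusted p under 0.05, beside 19.3%. With 1 library left out the log2 fold change ran from 1.15 to 1.19 for *Ltbp4*, from -1.19 to -1.06 for *Tgfb2* and from 0.52 to 0.65 for *Ltbp1*. Groups did not overlap for 5 of the 7, beside 66.4% of genes. The median log2 fold change was 0.08 over those 7 and -0.01 over all genes. Rescaling the libraries to a common FPKM total moved the share of higher calls from 46.2% to 60.2%, with *Ltbp4* at 1.29 and *Tgfb2* at -1.02. Astrocyte markers were lower in cKO neurospheres (5 of 6 called, summed 699 to 708 against 425 to 466 FPKM), and progenitor markers summed to 1588 to 1697 FPKM in controls and 2782 to 3826 in cKO, with 2 called higher and 2 lower. Of 5 oligodendrocyte lineage markers 3 were called lower, all 3 with an adjusted p under 0.05, and 2 were not called. Pdgfra, a receptor of oligodendrocyte precursors whose entry also holds Mir7025, was at 43.8 and 45.9 FPKM in controls and 12.7 and 10.4 in cKO, while the list's sum was carried by Olig1 (1774 and 1706 against 1956 and 1885 FPKM), which was not called. The 3 cartilage markers that passed the filter were called lower (7 listed, 9.34 to 10.1 against 1.75 to 1.77). The part of these lists in the member values was not tested. All 9 microglial markers were under 1 FPKM in every neurosphere library, the highest at 0.530, with *Aif1* and *Trem2* listed at 0, and 7 of 10 meningeal markers were under 1 FPKM, the highest of them *Col3a1* at 0.807. The other 3 were above it, so that the whole meningeal list summed to 289 to 302 FPKM in controls and 255 to 309 in cKO. Ptgds was at 119 and 128 FPKM in controls and 60.1 and 90.7 in cKO and was called lower, Foxc1 lay between 2.89 and 6.18 FPKM and was not called, and Crabp2 was measured only in an entry joined with 3 other genes.

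The order in control neurospheres was *Ltbp4* and *Ltbp3*, then *Tgfb2* and *Tgfbr1*, which overlapped, then *Ltbp1* and *Tgfb3*, which also overlapped, with *Tgfbr3*, *Tgfbr2*, *Tgfb1* and *Ltbp2* at the bottom. In cKO the order was *Ltbp4*, *Ltbp3*, *Tgfbr1*, *Tgfb2*, *Ltbp1* and *Tgfb3*, with no overlap between neighbours. *Ltbp4* made up 48.9 to 49.6% of the summed latent binder FPKM in controls and 66.7 to 67.1% in cKO, a share taken within each library and so free of its scaling. *Tgfb2* made up 89.0 to 89.5% of summed ligand FPKM in controls and 73.4 to 75.6% in cKO. The binders summed to 36.2 to 36.7 FPKM in controls and 61.8 to 63.1 in cKO, against 13.0 to 14.3 and 6.42 to 7.12 FPKM for the ligands.

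**Figure D2:**
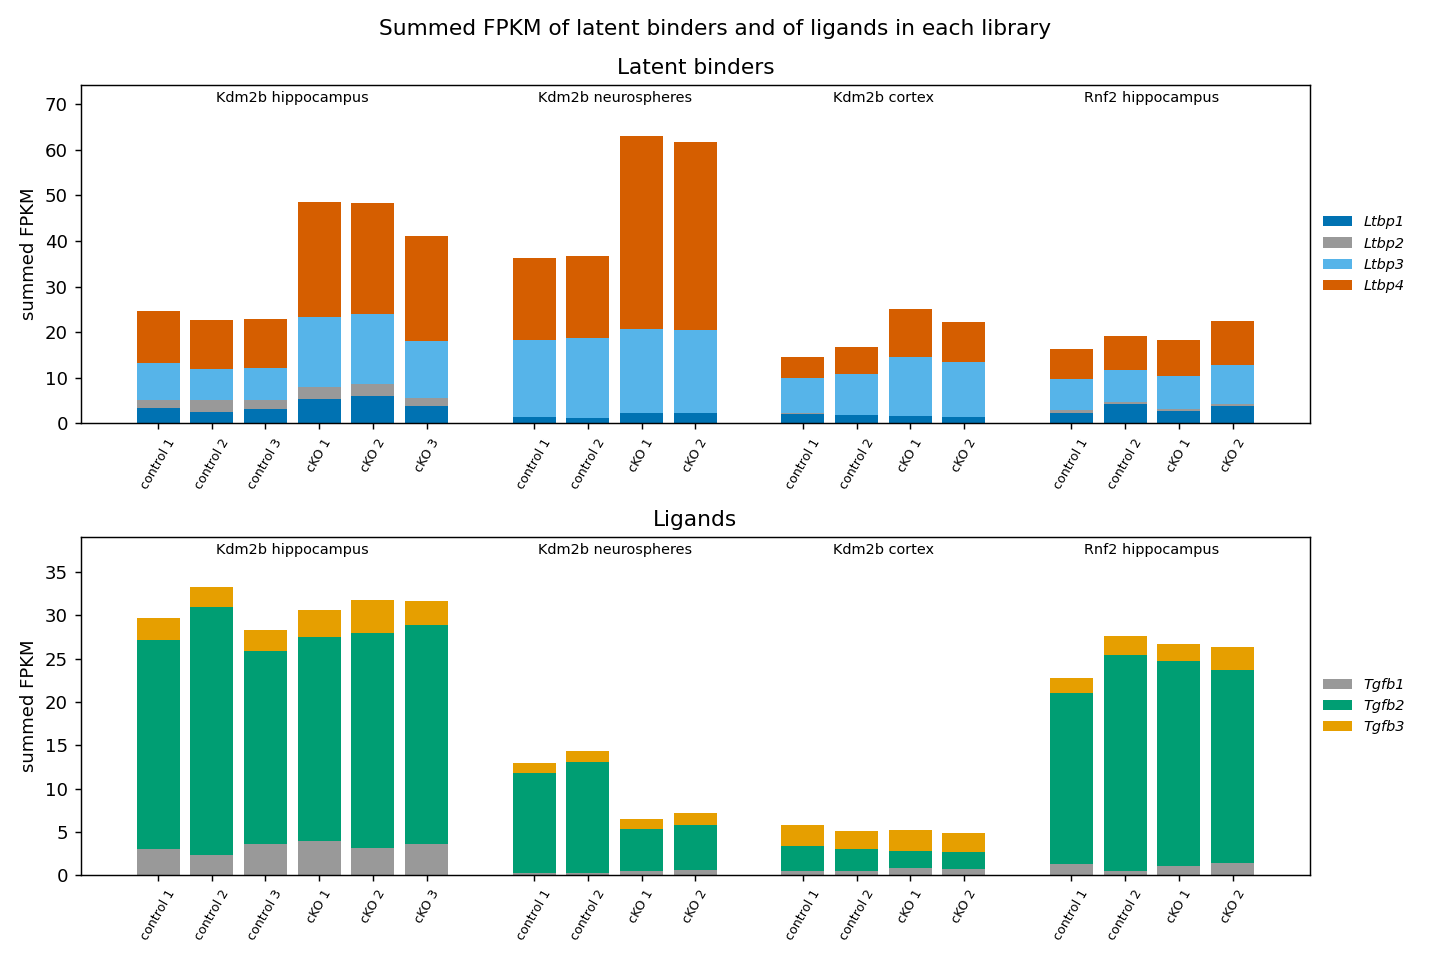
Summed FPKM (y axis, linear from 0) of the 4 latent binders (upper panel) and the 3 ligands (lower panel) in each library (x axis), stacked by gene. Neurosphere binders sum to 36.2 to 36.7 FPKM in controls and 61.8 to 63.1 in cKO, mostly through *Ltbp4*, and neurosphere ligands to 13.0 to 14.3 and 6.42 to 7.12 FPKM, mostly through *Tgfb2*.

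In cKO cortex *Ltbp4*, *Ltbp3* and the receptor gene *Tgfbr2* were higher at the unadjusted threshold, and none of them passed the adjusted one. *Ltbp4* was at 4.61 and 5.84 FPKM in controls, or 656 and 803 reads, and at 10.5 and 8.75 FPKM in cKO, or 1334 and 1057 reads. The groups were apart, with a log2 fold change of 0.77 (SE 0.14, 95% interval 0.42 to 1.13, adjusted p = 0.126 from limma). *Ltbp3* was at 7.88 and 9.08 FPKM against 13.0 and 12.1 FPKM, a log2 fold change of 0.51 (SE 0.096, adjusted p = 0.134). *Tgfbr2*, the ligand-binding receptor, was at 0.676 and 0.908 FPKM against 1.62 and 1.49 FPKM, or 122 and 158 reads against 260 and 228, a log2 fold change of 0.51 (SE 0.13, adjusted p = 0.223). On recovered reads limma-voom gave 0.89 for *Ltbp4* (adjusted p = 0.00718), 0.57 for *Ltbp3* (adjusted p = 0.0163) and 0.99 for *Tgfbr2* (adjusted p = 0.0172). Without cKO 1 the *Tgfbr2* value was 0.48 and no longer called.

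*Tgfb2* was lower in cortical cKO, at 2.91 and 2.53 FPKM against 1.95 and 1.96 FPKM, but its log2 fold change of -0.33 (95% interval -0.59 to -0.07, adjusted p = 0.297) was under the fold threshold. *Ltbp1* was at 2.05 and 1.76 FPKM in controls and 1.59 and 1.38 FPKM in cKO, a log2 fold change of -0.22 (95% interval -0.53 to 0.08). *Tgfbr1*, with the highest level of the members in cortex, was at 28.9 and 33.4 FPKM against 35.9 and 39.9 FPKM, a log2 fold change of 0.28 (adjusted p = 0.385). *Tgfb1* (0.504 and 0.513 against 0.778 and 0.668 FPKM) and *Tgfb3* (2.41 and 2.06 against 2.44 and 2.28 FPKM) were not called. *Ltbp2* and *Tgfbr3* were under the filter, with 2 to 20 and 25 to 69 reads per library.

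Of the 8 members that passed the filter in cortex 3 were called higher, beside 7.01% of 15691 genes in either direction and 4.73% higher, and 0 passed with an adjusted p, beside 0.427%. At an unadjusted p alone 5 of the 8 passed, beside 2013 of the 15691 genes. Groups did not overlap for 7 of the 8, beside 44.8% of genes, and the medians were 0.23 over the 8 and -0.01 over all genes. All 9 meningeal markers that passed the filter were called higher in the same cKO libraries (10 listed, summed 3.27 to 5.34 FPKM in controls and 54.9 to 61.1 in cKO). So were 3 of 8 endothelial (40.4 to 41.9 against 63.2 to 64.5) and 3 of 5 blood markers (435 to 454 against 623 to 711). Of the mural markers that passed 2 of 5 were called higher (8 listed, 29.8 to 30.2 against 44.6 to 52.7), and of the microglial 4 of 8 (9 listed, 16.9 to 19.8 against 26.5 to 34.7). Their part in the cortical member values was not tested.

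The order in control cortex was *Tgfbr1*, *Ltbp3*, *Ltbp4*, *Tgfb2*, *Tgfb3*, *Ltbp1*, *Tgfbr2*, *Tgfb1*, *Tgfbr3* and *Ltbp2*, with no overlap between neighbours. In cKO *Tgfb3* stood above *Tgfb2*, and *Tgfbr2* and *Ltbp1* overlapped. *Ltbp3* and not *Ltbp4* was the most abundant binder RNA per length in cortex, with 53.8 to 54.2% of summed binder FPKM in controls and 51.7 to 54.2% in cKO. *Tgfb2* made up 49.6 to 49.9% of ligand FPKM in controls and 37.8 to 39.9% in cKO. These levels come from a table normalized separately from those of the other tissues, so levels were tested within a table only.

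The *Rnf2* hippocampi asked whether loss of the PRC1 ligase goes with the same member differences. None of the 10 members, all of which passed the filter, was called, beside 4.71% of 15764 genes. No member had an unadjusted p under 0.05 in limma or in limma-voom, and over all genes 0 passed with an adjusted p in limma, 1121 had an unadjusted p under 0.05 and limma-voom gave 4 with an adjusted p. *Ltbp4* was at 6.54 and 7.58 FPKM in controls and 7.93 and 9.62 FPKM in cKO, without overlap, with a log2 fold change of 0.28 (95% interval -0.09 to 0.64, adjusted p = 0.737). *Ltbp3* was at 6.80 and 6.92 FPKM against 7.29 and 8.67 FPKM, a log2 fold change of 0.19 (95% interval -0.14 to 0.52).

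*Tgfb2* was at 19.7 and 24.9 FPKM against 23.6 and 22.3 FPKM, overlapping, with a log2 fold change of 0.05. *Tgfbr2* (3.55 and 2.76 against 2.60 and 2.14 FPKM) and *Ltbp2* (0.678 and 0.589 against 0.421 and 0.362 FPKM) were lower in both cKO libraries, with log2 fold changes of -0.30 and -0.23 and neither called. Groups did not overlap for 4 members, beside 38.3% of genes. Controls differed among themselves by more than the group means did for *Ltbp1* (2.30 and 4.16 FPKM), *Tgfbr1* (15.3 and 23.2 FPKM) and *Tgfb2*. The same held for *Tgfb1*, *Tgfb3* and *Tgfbr3*, and narrowly for *Tgfbr2*. Of 8 meningeal markers that passed the filter 5 were called lower in these cKO (10 listed, 41.2 to 43.8 against 20.6 to 29.3 FPKM). Of 6 mural markers that passed 2 were called lower (8 listed, 66.9 to 71.6 against 47.7 to 56.3). Choroid plexus markers ran from 12.8 to 50.8 FPKM in controls and from 7.86 to 244 in cKO. The part of these lists in the member values was not tested.

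**Figure D3:**
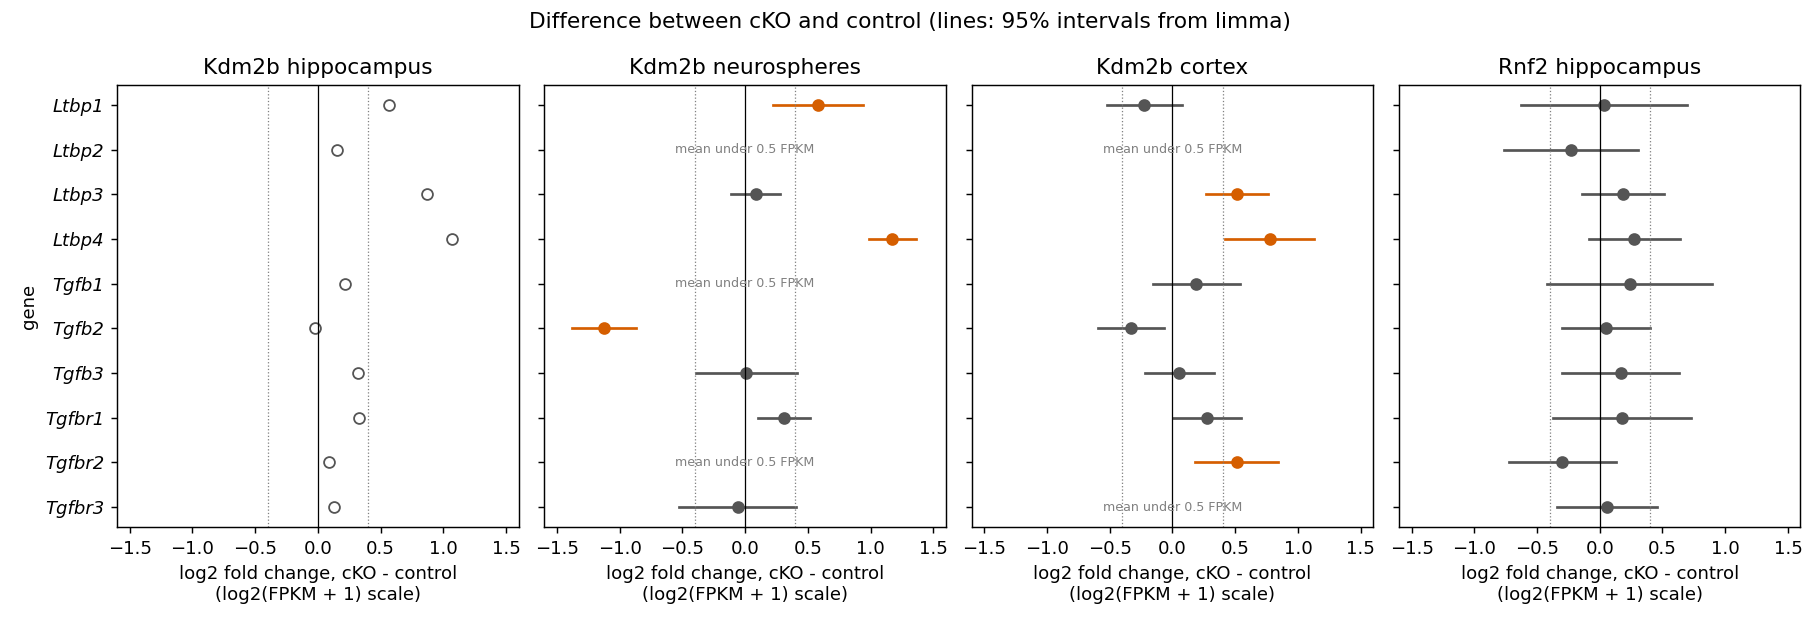
Log2 fold change, cKO minus control (x axis, log2(FPKM + 1) scale), of the 10 genes (y axis) in the 4 comparisons, with lines for 95% intervals from limma, orange for genes called, dotted lines at the fold threshold of 0.4 and open points without interval for the hippocampal contrast that chose the genes. *Ltbp4* lies at 1.07, 1.17, 0.77 and 0.28 from left to right, and *Tgfb2* at -0.02, -1.12, -0.33 and 0.05.

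The member differences of neurospheres and cortex, neither of which chose the genes, were compared by an interaction term between genotype and table, fitted to 10299 genes, 15.8% of which had an adjusted p under 0.05 in limma. The 2 tables were made separately, so each difference was taken within its own table. Of the 6 members that passed the filter in both tables, 3 had an adjusted p under 0.05. *Ltbp1* was higher in cKO neurospheres and lower in cKO cortex, a difference of 0.81 (SE 0.17, adjusted p = 0.0134). *Tgfb2* was lower in both and by more in neurospheres, at -0.79 (SE 0.14, adjusted p = 0.00632), and *Ltbp3* differed by less in neurospheres than in cortex, at -0.43 (SE 0.12, adjusted p = 0.0449). After rescaling to a common FPKM total the *Tgfb2* and *Ltbp3* differences were -0.66 (adjusted p = 0.194) and -0.28 (adjusted p = 0.737). That total includes *Mir6236*, which was high in neurosphere control 1. The same rescaling moved the median log2 fold change over all neurosphere genes from -0.01 to 0.09. The *Ltbp3* difference was also lost with median-ratio scaling, at -0.42 (adjusted p = 0.0503).

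For *Ltbp4* the neurosphere minus cortex difference was 0.40 (95% interval 0.04 to 0.76, adjusted p = 0.131), which did not pass, and for *Tgfb3* and *Tgfbr1* it was -0.04 and 0.03. Hippocampus and neurospheres, set side by side without a test, had log2 differences of 1.07 and 1.17 for *Ltbp4*, 0.57 and 0.58 for *Ltbp1*, 0.87 and 0.08 for *Ltbp3*, and -0.02 and -1.12 for *Tgfb2*.

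Among 9605 genes that passed the filter in all 4 tables, those whose pattern over the 18 libraries was most like that of *Ltbp4*, each table centred on its own mean, were *Scarf2* (Pearson r = 0.97), *Megf6* (0.97), *Arhgap10* (0.97), *Sfrp2* (0.96) and *Pde5a* (0.96). *Scarf2* encodes a scavenger receptor family protein, *Megf6* a protein with many EGF-like repeats, *Arhgap10* a GTPase activator, *Sfrp2* a secreted modulator of Wnt signalling and *Pde5a* the cGMP phosphodiesterase. *Scarf2* differed by 1.44, 1.21, 1.05 and 0.47 and *Sfrp2* by 1.06, 1.19, 0.94 and 0.56 on the log2 scale in hippocampus, neurospheres, cortex and *Rnf2* hippocampus. Of the members the most like was *Ltbp3* (r = 0.82, rank 132), followed by *Tgfbr1* (0.79), *Ltbp1* (0.67) and *Tgfb3* (0.57), whereas *Tgfb2* was at -0.66. These values describe points that share libraries, groups and tables, among them the contrast that chose *Ltbp4*.

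Of 41 other genes of the pathway, 39 passed the filter in hippocampus, where 1 was called higher and 1 lower, beside 3.89% and 2.25% of all genes. *Cdkn1a*, which encodes the cell cycle inhibitor p21 and responds to TGF-beta and to p53, was at 7.49, 5.36 and 8.15 FPKM in controls and 11.1, 14.1 and 10.2 FPKM in cKO, a log2 fold change of 0.69 (adjusted p = 0.0261). *Tagln*, a smooth muscle actin-binding protein, had a log2 fold change of -0.46 (adjusted p = 0.138). None of the 11 genes of latency and activation, 4 co-receptors, 6 transducers and 10 inhibitors that passed was called. Among these the transducer *Strap* and the inhibitor *Tgif2* were read from entries that each join them with another gene. The median over the 39 was 0.02.

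In neurospheres 34 pathway genes passed the filter, 5 of which were called higher and 4 lower, beside 11.4% and 13.2% of all genes. Among the genes that hold or release latent complexes, *Fbn2* (fibrillin-2) went from 11.6 and 13.8 FPKM to 25.4 and 28.4 FPKM, a log2 fold change of 1.03 (adjusted p = 0.00357). *Fbn1* (fibrillin-1, to which LTBPs attach) had 0.67 (adjusted p = 0.0126), and *Thbs1* (thrombospondin-1, an activator of latent TGF-beta) -0.68 (adjusted p = 0.0644). The inhibitor *Pmepa1* had 0.60 (adjusted p = 0.0224), the target *Cdkn1a* 0.58 (adjusted p = 0.1), the cell cycle inhibitor *Cdkn2b* -0.62 (adjusted p = 0.0474) and the transducer *Smad3* -0.53 (adjusted p = 0.0506). *Bhlhe40*, a transcriptional repressor, went from 92.7 and 96.6 FPKM to 21.5 and 19.6 FPKM, a log2 fold change of -2.15 (adjusted p = 0.000485). *Tgif2* was the remaining call, and the median over the 34 was -0.13. *Tagln*, which was not called, was read there from an entry joined with *Pcsk7*.

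In cortex 34 pathway genes passed the filter, 8 of which were called higher and 0 lower, beside 4.73% and 2.28% of all genes, and 1 had an adjusted p under 0.05. That gene was *Dcn*, decorin, a matrix proteoglycan that binds TGF-beta and is abundant in meningeal fibroblasts, at 0.303 and 0.443 FPKM in controls and 5.58 and 6.18 FPKM in cKO (log2 fold change 2.33, adjusted p = 0.0114). *Cdkn1a* had 0.64 (adjusted p = 0.241), the elastin-interface protein *Emilin1* 0.53 (adjusted p = 0.345) and fibronectin *Fn1* 0.48 (adjusted p = 0.26). The meningeal, vascular and blood markers that were higher in cortical cKO stand beside these calls too, and without cKO 1 fewer pathway genes were called. In *Rnf2* hippocampus 38 passed, with 2 called higher, *Cdkn2b* at 0.78 (adjusted p = 0.643) and *Ldlrad4* at 0.48 (adjusted p = 0.654), and 0 lower, beside 2.86% and 1.85% of all genes. No pathway gene there passed with an adjusted p in limma.

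**Figure D4:**
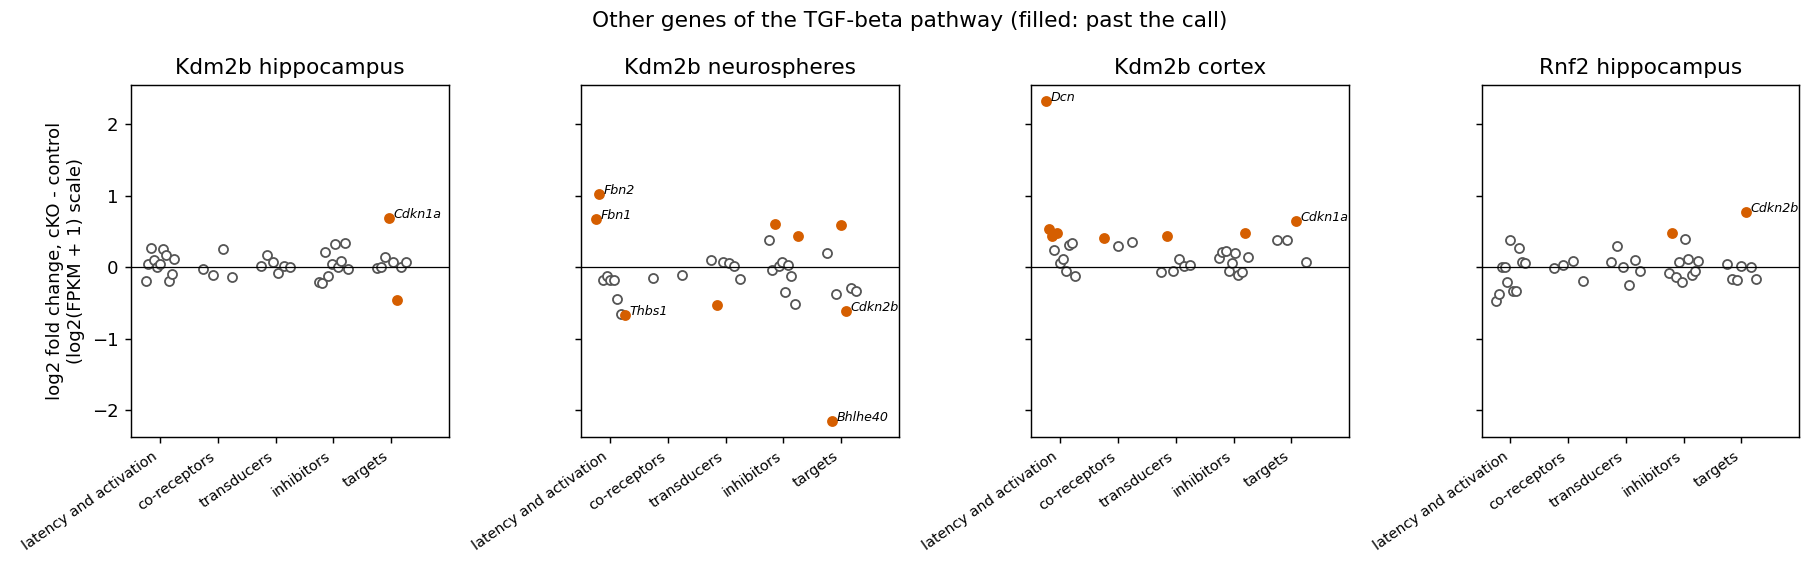
Log2 fold change, cKO minus control (y axis, log2(FPKM + 1) scale), of the pathway genes other than the members that passed the filter, grouped by role (x axis) in the 4 comparisons, with filled orange points for genes called and names for calls beyond 0.6 in size. *Bhlhe40* lies at -2.15 and *Fbn2* at 1.03 in neurospheres, and *Dcn* at 2.33 in cortex.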

How the data were processed

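The authors made poly(A)-selected paired-end libraries. For hippocampi and neurospheres, cutadapt trimming and STAR alignment (mm10) preceded the FPKM values that the authors estimated with Cufflinks 2.2.1 and deposited; the authors' calls used DESeq2 on counts not used here. The deposited cortical and *Rnf2* FPKM values come with gene lengths, and their processing is not given in the sources used here. Multiplying FPKM by length gave whole reads (within 0.05) for 100% of these values.

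The members and lists were chosen with earlier results of these data known. Of several entries for 1 gene name, that of highest mean entered the analysis. Genes averaging 0.5 FPKM or more were fitted as log2(FPKM + 1), which understates changes of low genes, with limma 3.58.1 in R 4.3.3 (lmFit, eBayes with a trend), each table by itself, and calls required both p under 0.05 and a change beyond 0.4 on the log2 scale. Benjamini-Hochberg adjustment ran over all genes of a table. limma-voom was run on recovered reads as an alternative, since count tests do not suit FPKM. Named genes were all members, the targeted genes, up to 4 called pathway genes per direction with the largest change, and the 5 genes most like *Ltbp4*. *Xist*, *Tgif2*, *Mir6236* and the markers named singly were added after their values were seen. Nothing in the labels says that samples of a group came from separate animals or cultures, so p values measure the spread between these samples, which may be technical. Alternatives covered pseudocount, filter, scaling, trend, replicate block, adjusted p, fold threshold, repeated entries and each library left out. For the difference between neurospheres and cortex they covered only pseudocount, scaling and replicate block. The fits were tested on simulated data. RefSeq windows and GENCODE M21 exons gave sequences and coordinates, which equal those of the cortical table for all 10 members. Other assays of the study were not analysed here, and some genes are not reported here.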

Additional observations from a re-analysis of the deposited data

Results flagged for a closer look

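The *Kdm2b* cKO effect on 3 members differed between neurospheres and cortex in the main fit of the difference itself, beside 15.8% of 10299 genes. For *Ltbp1* the neurosphere minus cortex difference was 0.81 on the log2 scale, for *Tgfb2* it was -0.79 and for *Ltbp3* it was -0.43, the values given with their tests above. Over the alternative settings the adjusted p from limma reached 0.0308 for *Ltbp1*, 0.194 for *Tgfb2* and 0.737 for *Ltbp3*. Those settings changed the pseudocount, the scaling or the replicate block, and no library was left out. Only the *Ltbp1* difference passed in all of them, and how it depends on single libraries was not tested.

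In all 3 hippocampal *Kdm2b* cKO libraries *Ltbp1* lay above the controls, whereas in both cortical cKO libraries it lay below them. The cortical log2 fold change of -0.22 (95% interval -0.53 to 0.08) was not called, and groups did not overlap for 44.8% of cortical genes. The difference between the tissues was not tested, since the hippocampal contrast chose the genes.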

How the results depend on the processing

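With no fold threshold the calls over all genes were 3090 in hippocampus, 4669 in neurospheres, 2013 in cortex and 1121 in *Rnf2* hippocampus, those among members 5 in hippocampus and 5 in cortex, and those among pathway genes 6 in hippocampus and 4 in *Rnf2* hippocampus. Nothing is read from the hippocampal member count, since that contrast chose the members. At an adjusted p they were 593, 2358, 67 and 0 over all genes in the 4 tables. Among members they were 0 in cortex, and among pathway genes 1, 5, 1 and 0 in the 4 tables. limma-voom called 14 pathway genes in cortex, beside 1463 of 15691 genes, and 6 in *Rnf2* hippocampus, beside 756 of 15764. Rescaling to a common FPKM total left 1 member difference between neurospheres and cortex and turned that of *Tgfb3* to 0.045. Leaving out 1 library gave 1015 to 1667 calls in cortex (the highest without control 1) and 468 to 1580 in *Rnf2* hippocampus (without cKO 2 and control 2), and among pathway genes 1 to 3 in hippocampus, 5 to 12 in neurospheres, 3 to 8 in cortex and 1 to 4 in *Rnf2* hippocampus. Members that were not called turned sign when a library was left out: *Tgfb3* (-0.068 to 0.089 in neurospheres, -0.025 to 0.13 in cortex), *Tgfb2* in *Kdm2b* hippocampus (-0.099 to 0.078) and, in *Rnf2* hippocampus, *Ltbp1* (-0.29 to 0.35), *Tgfb1* (-0.070 to 0.55), *Tgfb2* (-0.11 to 0.21), *Tgfbr1* (-0.11 to 0.46) and *Tgfbr3* (-0.029 to 0.15). The cause of these shifts was not tested.

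Samples with the same replicate number did not deviate together in every table or pair (r = 0.049, -0.103 and -0.0858 in hippocampus, -0.277 in neurospheres, -0.0528 in cortex and 0.161 in *Rnf2* hippocampus), so the numbers were not taken as pairs. With the replicate block 831, 2993, 1197 and 989 genes and 3, 3, 3 and 0 members were called, and the difference for *Ltbp3* had an adjusted p of 0.114. The hippocampal member count is again a description, from which nothing is read. A crossed replicate block for neurospheres, added after seeing the data, called 3084 genes and 3 members.

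With 2 or 3 libraries a group, and depth unknown in hippocampus and neurospheres, members under 0.5 FPKM cannot be compared.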
